A study of Homo sapiens with 9 samples.

Results

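The NAP1-like family holds the histone chaperones related to nucleosome assembly protein 1 and to SET. Its members were described in HEK293 cells, a human embryonic kidney line, with and without knock-down of SmcHD1. The members were taken by gene: every array probe whose RefSeq accession named one of NAP1L1, NAP1L2, NAP1L3, NAP1L4, NAP1L5, SET, TSPYL1, TSPYL2, TSPYL4 or TSPYL5 was used. These 10 genes, of 19483 genes named on the array, had 13 of its 42405 probes. Of these, 10 probes of 9 genes were bright enough to be tested, out of 32276 tested probes. The family was selected on measured values, since its members were listed with the differences of both knock-downs from control on these same arrays known. Member values in those comparisons, and in the one between the knock-downs, which is the gap between those differences, are therefore a description. No p-value is given for them, and nothing is read from how many members passed a threshold.

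Proteins of this family share a domain that binds histones, carry acidic stretches, and hand H2A and H2B (SET also H3 and H4) to and from DNA. NAP1L1, NAP1L4 and SET are made in nearly all cells, while NAP1L2, NAP1L3 and NAP1L5 are known mainly from neurons and come from genes without introns. The TSPYL genes are relatives of TSPY, a gene of the Y chromosome. NAP1L2, NAP1L3 and TSPYL2 lie on the X chromosome, which SmcHD1, a chromosomal protein with an SMC hinge domain, helps to keep silent in its inactive copy. NAP1L5 is imprinted, with expression from the paternal allele.

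All 9 samples were stable HEK293 lines without further treatment, each carrying a short hairpin RNA (shRNA). KD3 carried shRNA 3 and KD4 carried shRNA 4, both directed against SmcHD1. CTL, the control, carried the NC5 hairpin. Each group had 3 samples, each on its own 1-colour Agilent array. The lines were puromycin-selected populations after retroviral delivery, so cells within a line could differ in hairpin dose. The methods call the samples biological triplicates. They do not say whether the 3 samples of a group were separate cultures, and the tests measure only the spread between them. The hairpins are shown because they define the groups. Capitals mark the longest part of the 3′ arm, before the closing run of t, that pairs exactly with the 5′ arm. It was 16, 18 and 16 bases. In shRNA 3 the first t of that run pairs with the 5′ arm as well.
shRNA 3 (KD3): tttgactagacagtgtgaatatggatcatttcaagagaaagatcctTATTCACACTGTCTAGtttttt
shRNA 4 (KD4): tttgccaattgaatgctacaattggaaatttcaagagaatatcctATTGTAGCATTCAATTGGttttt
shRNA NC5 (CTL): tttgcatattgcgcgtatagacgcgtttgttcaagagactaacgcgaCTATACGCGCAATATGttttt

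The promoters of the 3 X-linked members are shown because 2 of these genes had the large changes described next and the other did not. Each line gives the 250 bases before the start of transcription from RefSeq (build GRCh38.p14), read 5′ to 3′ along the gene, with CpG pairs in capitals. CpG pairs are where DNA methylation is set.
NAP1L2, chrX:73214852-73215101, minus strand: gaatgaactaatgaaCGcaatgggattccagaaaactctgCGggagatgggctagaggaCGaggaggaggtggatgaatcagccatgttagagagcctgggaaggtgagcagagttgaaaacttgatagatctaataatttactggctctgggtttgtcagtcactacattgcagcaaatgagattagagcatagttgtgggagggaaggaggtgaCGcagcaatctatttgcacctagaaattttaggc
NAP1L3, chrX:93673579-93673828, minus strand: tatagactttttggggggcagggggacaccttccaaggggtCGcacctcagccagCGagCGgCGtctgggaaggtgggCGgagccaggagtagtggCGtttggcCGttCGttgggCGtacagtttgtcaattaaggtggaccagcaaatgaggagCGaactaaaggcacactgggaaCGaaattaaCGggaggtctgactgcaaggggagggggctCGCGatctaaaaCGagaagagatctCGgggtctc
TSPYL2, chrX:53082117-53082366, plus strand: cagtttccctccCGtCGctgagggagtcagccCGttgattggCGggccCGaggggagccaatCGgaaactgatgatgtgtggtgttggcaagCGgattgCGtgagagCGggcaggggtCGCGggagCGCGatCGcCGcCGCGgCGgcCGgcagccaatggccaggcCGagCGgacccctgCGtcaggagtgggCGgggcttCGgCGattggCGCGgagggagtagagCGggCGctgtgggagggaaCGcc
The NAP1L2 window held 4 CpG pairs, and 29.3% of the 35116 promoter windows in the table held fewer. The NAP1L3 window held 16 CpG pairs, more than 59.0% of windows. The TSPYL2 window held 30, more than 87.6% of windows. The median was 11 over all windows and also over the 1236 windows of the X chromosome, so NAP1L2 lay below it and NAP1L3 and TSPYL2 above it. Motifs were searched on both strands: TATAAA (in 10.7% of all windows), CCAAT (32.0%), GGGCGG (42.6%), TGACGTCA (1.65%) and CACGTG (6.34%). None of them was found in the NAP1L2 window, NAP1L3 had 1 GGGCGG, and TSPYL2 had 4 CCAAT and 1 GGGCGG. These are matches of letters and say nothing of the factors that read them.

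Signals are given as log2 of the background-subtracted fluorescence after quantile normalization. A probe's level cannot be set against that of another probe. In a culture, fewer cells making a transcript and less transcript per cell cannot be told apart. SMCHD1 itself checked the labels. Its 3 probes stood at 49.1% to 51.0% of the CTL level in KD3 and at 34.4% to 35.2% in KD4, with every knock-down array below every CTL array. Between 75.1% and 79.8% of probes on an array were well above background (the scanner software's flag), no spot was saturated, and arrays of a group correlated at r = 0.9946 to 0.996 over probes. All 8 HEK293 markers examined were well above background on 9 of 9 arrays, among them VIM, KRT8 and KRT18. For 5 of these 8, every knock-down array lay below every CTL array: PAX2 (means of 8.56 in KD3, 8.31 in KD4 and 10.96 in CTL), NEFM (4.33, 4.30 and 5.54), INA (8.16, 8.38 and 8.99), LHX1 (12.32, 12.55 and 12.88) and NEFL (12.47, 12.40 and 12.81). Markers of other cell types were also flagged above background on all 9 arrays: 4 of 4 for blood cells, 2 of 4 for fibroblasts (DCN and LUM) and 2 of 3 for endothelium (VWF and CDH5). COL3A1 and PECAM1 were so on no array and PDGFRB on 3. Their summed signals (log2) were 8.8 to 8.99 in the knock-downs and 8.67 to 8.9 in CTL for blood cells, 5.71 to 6.35 and 6.11 to 6.31 for fibroblasts, and 7.14 to 7.51 and 7.52 to 7.6 for endothelium. Among these genes VWF (4.96 in KD3, 5.08 in KD4 and 5.77 in CTL) and PDGFRB (2.69, 2.04 and 3.74) were lower on every knock-down array. Of all tested probes, 17.5% lay below every CTL array on all arrays of KD3, and 21.8% on all arrays of KD4. The part of these marker differences in the results was not tested.

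NAP1L2 and NAP1L3 were far brighter in both knock-downs than in control cells. NAP1L2 (probe A_23_P125705) read 6.06, 6.37 and 6.32 in CTL, 9.01, 8.87 and 8.79 in KD3, and 9.49, 9.53 and 9.48 in KD4. The CTL and knock-down arrays did not overlap, and KD4 lay above KD3 on every array. The difference from CTL was 2.64 in KD3 and 3.25 in KD4 (log2, SE 0.0964), which is 6.25-fold and 9.52-fold. NAP1L3 (probe A_23_P125717) read 6.40, 6.35 and 6.32 in CTL, 9.44, 9.14 and 9.29 in KD3, and 9.55, 9.61 and 9.70 in KD4. Here too the CTL arrays stood apart, by 2.93 in KD3 and 3.27 in KD4 (SE 0.0877), or 7.65-fold and 9.61-fold.

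The arrays came from 2 slides, each of which held all 3 groups. Since no knock-down array of these genes overlapped CTL, the direction on each slide was given beforehand, and only the sizes are described. Slide 1 held 1 KD3 array, and slide 2 held 1 KD4 and 1 CTL array. For NAP1L2 the KD3 difference was 2.53 on slide 1 and 2.84 on slide 2, and the KD4 difference was 3.16 and 3.43. NAP1L3 gave 2.81 and 2.96 for KD3, and 3.32 and 3.15 for KD4, on the same slides. With normexp background correction, which lifts dim signals, the sizes shrank to 1.94 and 2.57 for NAP1L2 and to 2.21 and 2.48 for NAP1L3.

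**Figure D1:**
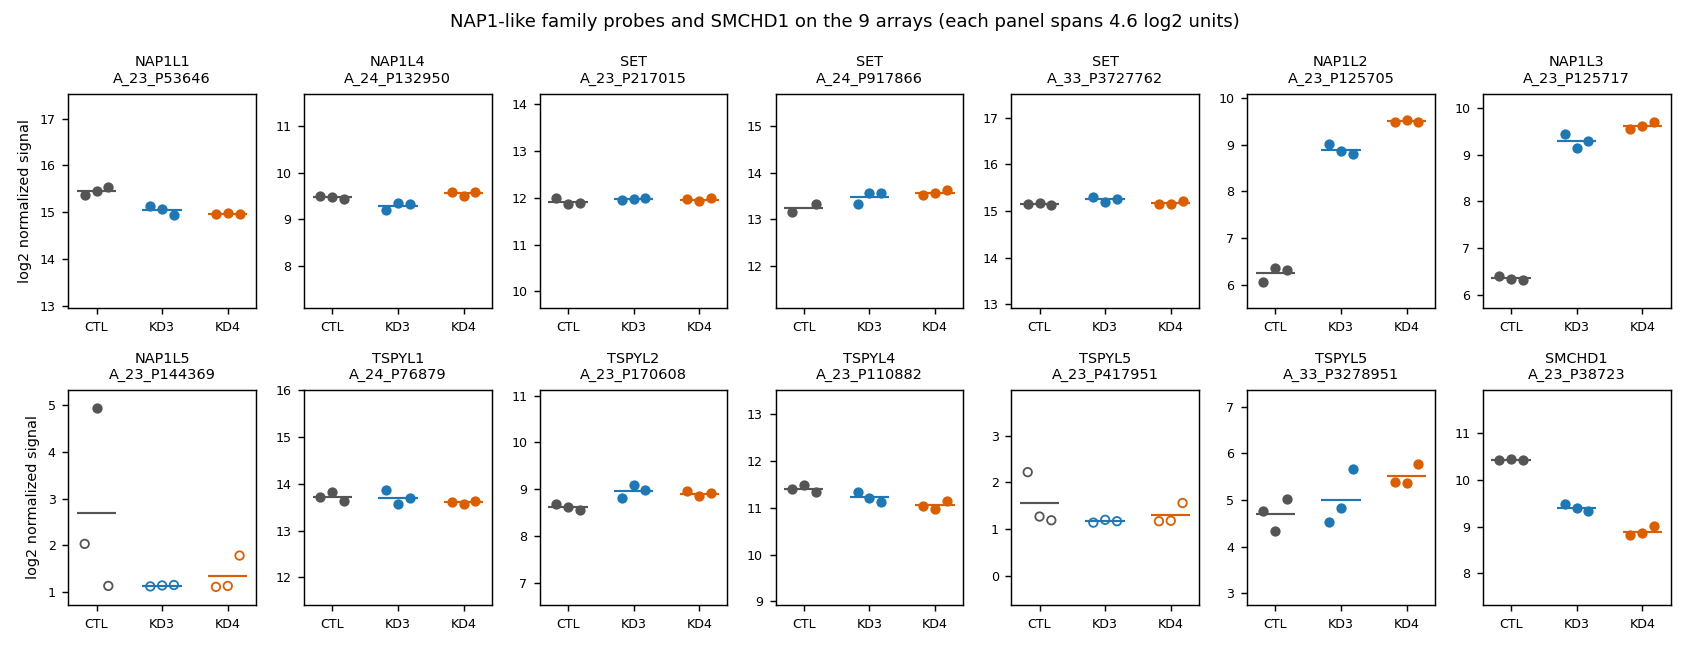
Log2 normalized signal of the 13 family probes and 1 SMCHD1 probe on each array. Each point is an array and each bar a group mean; open points were not well above background, and the vertical span is the same in all panels. In the NAP1L2 and NAP1L3 panels the 6 knock-down arrays sit at 8.79 or higher and the 3 CTL arrays at 6.40 or lower, while most other panels are flat on this scale.

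TSPYL2, the remaining X-linked member, encodes a nuclear protein linked to growth arrest and neuronal gene expression. Its probe (A_23_P170608) read 8.69, 8.62 and 8.55 in CTL, 8.82, 9.10 and 8.98 in KD3, and 8.96, 8.85 and 8.91 in KD4. Every knock-down array was above every CTL array, but by little: the differences were 0.35 in KD3 and 0.29 in KD4 (log2, SE 0.0856), or 1.27-fold and 1.22-fold. The probe had 2 spots on each array, and the SD between them was up to 0.15.

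Of the broadly expressed members, NAP1L1 was lower in both knock-downs. NAP1L1, the most general H2A-H2B chaperone of the family, read 15.36, 15.46 and 15.53 in CTL, 15.14, 15.06 and 14.95 in KD3, and 14.97, 14.98 and 14.96 in KD4. The groups did not overlap with CTL, and the differences were -0.40 and -0.48 (log2, SE 0.076), leaving 75.7% and 71.8% of the CTL signal. NAP1L4, a close relative that shuttles histones between cytoplasm and nucleus, read 9.51, 9.48 and 9.44 in CTL, 9.20, 9.36 and 9.32 in KD3, and 9.59, 9.51 and 9.58 in KD4. It differed from CTL by -0.18 in KD3 and 0.08 in KD4 (SE 0.0687), with KD3 below CTL on every array and KD4 overlapping it.

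SET, a chaperone and inhibitor of protein phosphatase 2A, had 3 probes. Probe A_23_P217015 differed from CTL by 0.06 in KD3 and 0.05 in KD4 (SE 0.0633), and A_33_P3727762 by 0.10 and 0.02 (SE 0.0625). The 95% intervals of these 4 differences ran from -0.12 to 0.24 at most. Probe A_24_P917866 was left out of the fit because its spot on CTL replicate 2 was flagged as uneven or as an outlier. It read 13.16 and 13.33 on the other CTL arrays, 13.34, 13.57 and 13.56 in KD3, and 13.52, 13.57 and 13.63 in KD4, so every knock-down array was above both CTL arrays on that probe. SET has near-identical pseudogene copies, and what its probes hybridise to is uncertain.

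Among the autosomal TSPYL genes no difference was called. TSPYL1 differed from CTL by -0.02 in KD3 and -0.12 in KD4 (log2, SE 0.0895). TSPYL4 had 10 spots on each array, with an SD over spots of 0.0367 to 0.0792. It read 11.40, 11.48 and 11.35 in CTL, 11.34, 11.22 and 11.12 in KD3, and 11.05, 10.97 and 11.15 in KD4. Both knock-downs were below CTL on every array, by -0.18 and -0.35 (SE 0.0834).

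TSPYL5, known to interfere with the deubiquitinase USP7, had the largest SE of the tested members. Its brighter probe (A_33_P3278951) read 4.77, 4.33 and 5.03 in CTL, 4.52, 4.83 and 5.66 in KD3, and 5.38, 5.36 and 5.78 in KD4. KD3 overlapped CTL, with a difference of 0.29, and KD4 did not, with a difference of 0.80 (SE 0.292), or 1.74-fold. Without KD3 replicate 3 the KD3 difference was -0.03, and without any 1 array the KD4 difference was 0.61 to 0.96. With normexp background correction the KD4 difference was 0.36. In KD4 it passed the adjusted p, though not the fold threshold, with normexp, when only the groups compared were fitted, and without KD3 replicate 3. Its other probe, A_23_P417951, stayed near background on all 9 arrays, at 1.14 to 2.22.

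NAP1L5 could not be tested. Its probe was well above background on CTL replicate 2 alone, at 4.94, and read 1.11 to 2.03 on the other 8 arrays. Relatives outside the list were also too dim: TSPY26P (older name TSPYL3), both TSPYL6 probes and NAP1L6P.

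A difference was called where limma's adjusted p was under 0.05 and the fold at least 1.8. In KD3, 2 of the 10 tested family probes were called higher, against 1.12% of all tested probes, and 0 lower, against 2.2%. At an unadjusted p under 0.05, 5 of the 9 tested genes passed by limma, against 43.1% of all tested named genes. By the methods' t-test 5 passed, against 32.3%. In KD4, 2 probes were called higher, against 1.42% of all probes, and 0 lower, against 3.19%. Unadjusted, 6 genes passed by limma, against 51.3% of all tested named genes, and 6 by the methods' t-test, against 41.4%. NAP1L2 and NAP1L3 were the called genes each time. On the adjusted p alone, 3 probes were higher and 1 lower in KD3, where 9.64% and 10.4% of all probes passed. In KD4, 3 were higher and 2 lower, where 13.6% and 14.8% passed. The additional genes were TSPYL2 (higher in both), NAP1L1 (lower in both) and TSPYL4 (lower in KD4). TSPYL2 lost this call in KD3 without KD3 replicate 2 (log2 difference 0.28), KD3 replicate 3 (0.34), CTL replicate 2 or CTL replicate 3. In KD4 it lost the call without KD3 replicate 3, KD4 replicate 1, 2 or 3, CTL replicate 2 or CTL replicate 3. Its differences without 1 array were 0.28 to 0.42 in KD3 and 0.25 to 0.32 in KD4. TSPYL4 lost its call in KD4 without KD4 replicate 2 (-0.31). With the methods' t-test, adjusted, none of these 3 genes passed. TSPYL2 also did not pass in KD4 with scaling to the 75th percentile (0.27), the authors' log2 values (0.26), no filter on dim probes or the slide block, nor in KD3 when only the groups compared were fitted. All arrays of KD3 lay above CTL for 4 family probes and below for 3, where 18.5% and 17.5% of all probes did so. In KD4 these numbers were also 4 and 3, against 23.1% and 21.8%. The median difference over the 10 probes was 0.08 in KD3 and 0.06 in KD4, beside 0.01 and 0.04 over all probes.

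**Figure D2:**
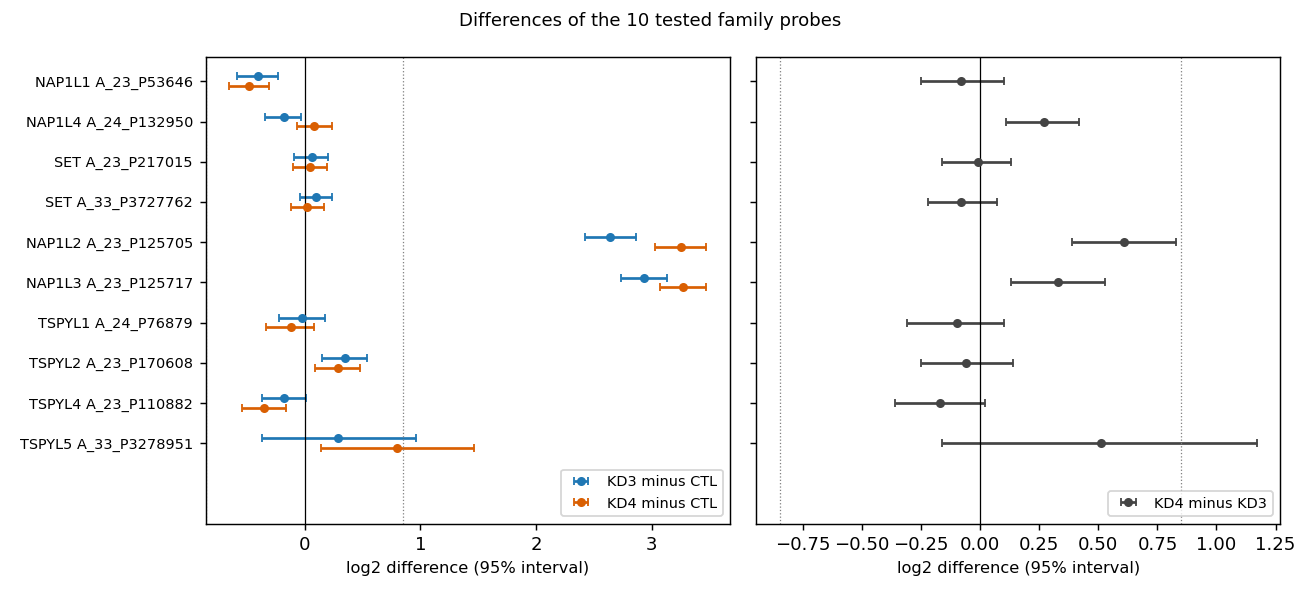
Log2 differences of the 10 tested family probes with 95% intervals, against CTL on the left and KD4 minus KD3 on the right (the horizontal scales differ). Dotted lines mark a 1.8-fold difference; on the left only NAP1L2 and NAP1L3 lie beyond them, between 2.64 and 3.27, and on the right no probe does.

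KD4 was then set directly beside KD3. For the members this is a description and no independent test, since it is the gap between the 2 differences known when the family was chosen. NAP1L2 was 0.61 higher in KD4 (log2, SE 0.0964, 95% interval 0.39 to 0.83), or 1.52-fold, on 3 of 3 arrays. The difference was 0.63 on slide 1 and 0.59 on slide 2, and 0.56 to 0.67 with any 1 array left out. It passed limma's adjusted p but not the fold threshold. It no longer passed the adjusted p without KD3 replicate 2 (0.60), KD3 replicate 3 (0.56), KD4 replicate 1 (0.61), KD4 replicate 2 (0.60) or KD4 replicate 3 (0.62), nor by the methods' t-test after adjustment. The SMCHD1 probes were 0.51 to 0.56 lower in KD4 than in KD3 (limma adjusted p of 0.0141, 0.0195 and 0.0902), and the part of this in the NAP1L2 difference was not tested.

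NAP1L3 was 0.33 higher in KD4 than in KD3, with a 95% interval of 0.13 to 0.53. NAP1L4 was 0.27 higher, with an interval of 0.11 to 0.42. TSPYL5 differed by 0.51, with an interval of -0.16 to 1.17. None of these 3 passed limma's adjusted p. The other tested probes differed by -0.17 to -0.01. With the fold threshold 0 family probes were called in this comparison, against 0.204% of all probes higher and 0.239% lower in KD4. On the adjusted p alone 1 was higher, against 0.948%, and 0 lower, against 1.52%. At an unadjusted p under 0.05, NAP1L2, NAP1L3 and NAP1L4 passed by limma, where 25.4% of all tested named genes did. They also passed by the methods' t-test, where 3538 of 16082 did. For these 3 probes all KD4 arrays lay above all KD3 arrays, as they did for 14.1% of all probes, and for 0 family probes they lay below, against 14.9%.

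The X-linked members were set beside the other X-linked genes. Of 605 other tested X-linked genes, 49 (8.1%) were called higher in KD3 and 52 (8.6%) in KD4. Called lower were 16 (2.64%) and 21 (3.47%). Among 15468 other tested genes not on X, 1.16% and 1.4% were called higher, and 3.54% and 4.76% lower. Ranked by difference among 608 tested X-linked genes, NAP1L3 stood 8th from the top in KD3 and 9th in KD4. NAP1L2 stood 11th and 10th, and TSPYL2 137th and 216th. The X-linked members were thus spread from near the top of the chromosome's genes to well down the list.

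The nearest measured genes on either side of each X-linked member were read next. FAM133A, which lies 0.103 kb from NAP1L3 on the opposite strand, read 5.85, 5.20 and 5.41 in KD3 and 5.56, 5.36 and 5.22 in KD4. On the CTL arrays it read 3.22, 1.85 and 3.41 and was not well above background. It entered the fit only because it was well above background in the knock-downs, so its call there is not counted as a test. For a ratio, its CTL value was taken as the array's lowest signal well above background (2.24 to 2.44), or its own signal where higher. The ratio to CTL was then 5.51 for KD3 and 5.13 for KD4. These ratios are no lower bounds, since FAM133A was not well above background even at 3.22 and 3.41 in CTL. PCDH11X, a protocadherin gene, lies 1050 kb away on the other side of NAP1L3. It differed from CTL by 0.25 in KD3 and 0.31 in KD4 (log2, SE 0.245), and its arrays overlapped between the groups.

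Around NAP1L2 the differences were small. PABPC1L2B, 206 kb away, differed by 0.30 in KD3 and 0.27 in KD4 (SE 0.141). CHIC1, 348 kb away, differed by 0.27 and 0.31 (SE 0.125). Beside TSPYL2, GPR173 (1.75 kb away) differed by -0.01 and 0.18 (SE 0.199). The histone demethylase gene KDM5C (87.7 kb away) differed by 0.06 and 0.10 (SE 0.0807). HERC3, the host gene in which the imprinted NAP1L5 lies, differed by 0.57 and 0.65 (SE 0.316), and FAM13A-AS1 by 0.09 and 0.31 (SE 0.144). None of the other 7 neighbours was called in either knock-down. FAM133A is not counted here, since it entered the fit only through its knock-down signals.

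**Figure D3:**
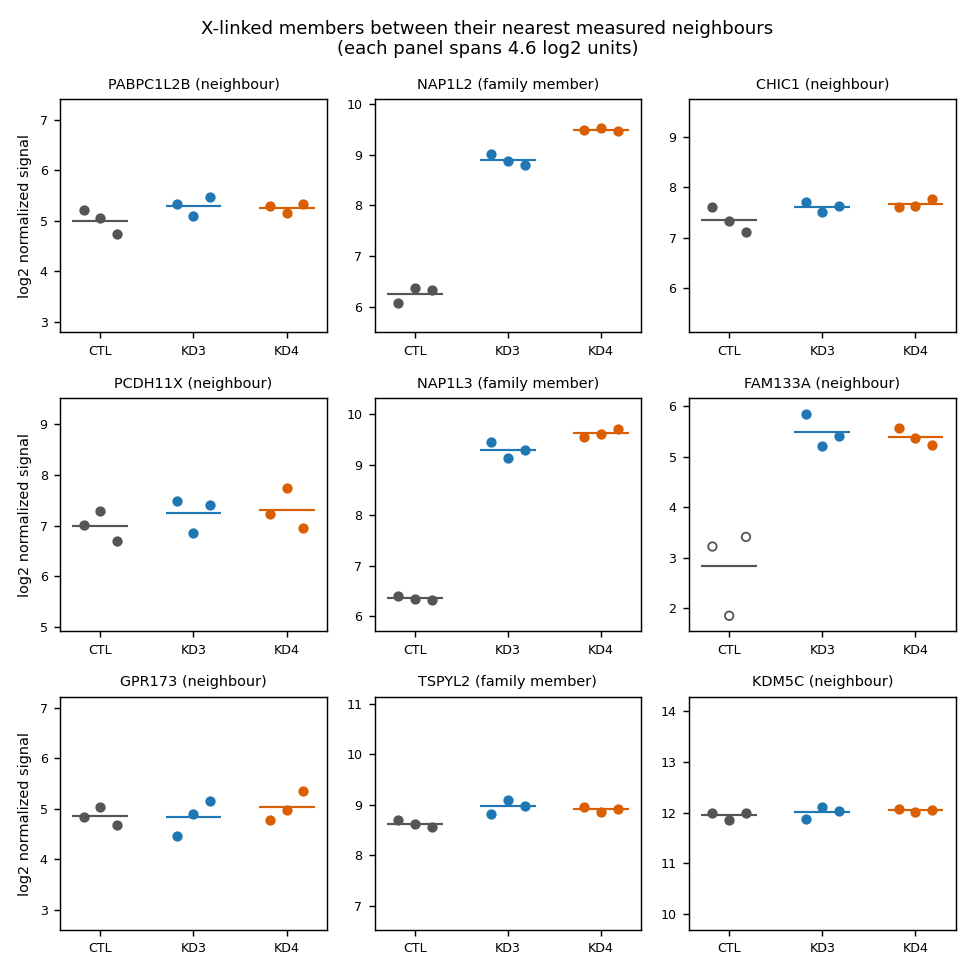
Log2 normalized signal on each array of NAP1L2, NAP1L3 and TSPYL2 (centre column), each between its nearest measured neighbours. Points are arrays, bars group means, and open points were not well above background; FAM133A, beside NAP1L3, is at 5.20 or more on the knock-down arrays and at 3.41 or less on the CTL arrays, while the neighbours of NAP1L2 and TSPYL2 differ by 0.31 or less.

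The genes most like NAP1L3 were found by the Euclidean distance between pairs of log2 differences (KD3 and KD4 against CTL), over 15379 genes well above background on all 9 arrays. NAP1L2 itself stood 2nd, at a distance of 0.292. Outside the family the nearest was SHROOM2, an X-linked gene, at 0.193, with differences of 3.12 and 3.23. CLCN4, also X-linked, followed at 0.377, with 3.11 and 2.93. LRATD1 on chromosome 2 stood at 0.833, KLHL4 on X at 0.851 and SLITRK4 on X at 1.05. These distances describe the same 9 arrays that the differences come from.

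Other histone chaperones showed no difference as large as those of NAP1L2 and NAP1L3. Of 35 listed genes, 34 were on the array and all of these were tested. With the fold threshold 0 were called in either knock-down, against the 1.12% to 3.19% of all probes above. By gene, the shares not on X were 1.16% to 4.76%. At an unadjusted p under 0.05, 14 genes passed by limma and 8 by the methods' t-test in KD3, and 14 and 12 in KD4. The shares of all tested named genes are given above. The log2 differences of each gene's brightest probe ran from -0.43 to 0.38 in KD3 and from -0.35 to 0.47 in KD4, with medians of 0.05 and 0.02. On the adjusted p alone, 3 genes were higher and 3 lower in KD3, and 7 higher and 3 lower in KD4. Of all tested probes, 9.64% were higher and 10.4% lower in KD3 by this rule, and 13.6% and 14.8% in KD4. The chaperones were counted by gene, on any of its probes. Counted so, 11.4% of the 15468 tested genes not on X were higher and 16.3% lower in KD3. In KD4 these shares were 16.4% and 21.9%. The genes that passed in both knock-downs were 3, named after their values were seen. ANP32E, which removes the variant H2A.Z from nucleosomes, differed by 0.35 and 0.30 on its brightest probe (A_24_P225468, SE 0.083), by 0.43 and 0.56 on a second and by 0.13 and 0.16 on the remaining one, which did not pass. NPM3, a nucleoplasmin, differed by -0.25 and -0.29 (SE 0.0622). PTMA, which encodes prothymosin alpha, a binder of linker histone, passed on 1 of its 5 probes (A_23_P434301, -0.38 and -0.43, SE 0.0979). Its brightest probe, A_24_P264207, differed by -0.10 and -0.09 (SE 0.0841) and the other three by -0.05 to -0.12, and these did not pass. Between KD4 and KD3, 0 of the 34 were called with or without the fold threshold, and 7 passed an unadjusted p under 0.05 by limma and 7 by the methods' t-test.

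**Figure D4:**
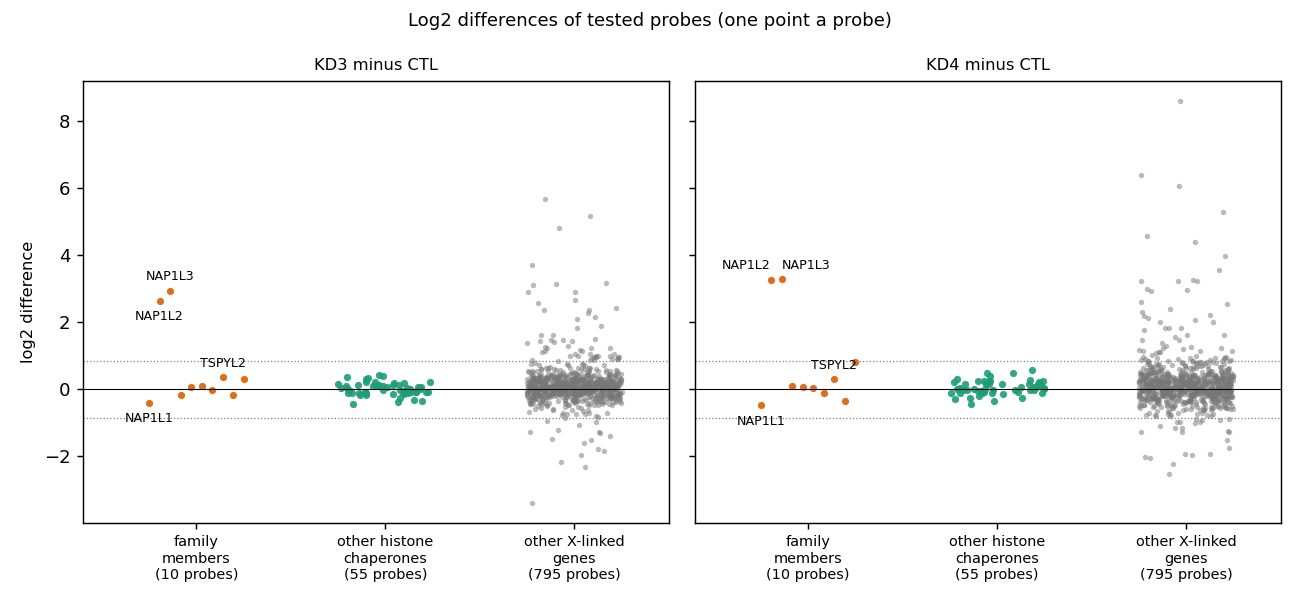
Log2 differences against CTL of the 10 tested family probes, 55 probes of other histone chaperones and 795 probes of other X-linked genes, 1 point a probe (the sideways spread carries no value). Dotted lines mark a 1.8-fold difference; NAP1L2 and NAP1L3 lie between 2.64 and 3.27, within the upper range of the X-linked genes and above every chaperone probe.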

How the data were processed

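Total RNA of 9 HEK293 samples was labelled with Cy3 and hybridised to 1-colour Agilent arrays. The authors deposited scanner output made with Agilent Feature Extraction 10.10.1.1, whose spot intensity is background-subtracted, and a table of log2 values normalized by them. That table, which lay 0.06 to 0.10 below the values here in median, was an alternative. Control spots and 260 to 634 spots per array flagged as uneven or as outliers, of 58717, were left out, and log2 intensity was quantile normalized. Spots of a probe were averaged, and 32276 probes well above background on all arrays of at least 1 group were tested. A mean per group was fitted to all 9 arrays with limma 3.58.1 (R 4.3.3, lmFit and eBayes), with Benjamini-Hochberg adjustment over all tested probes. The methods' t-test was an alternative. Array medians ran from 119.6 to 181.4, and 3 arrays per group limit the precision. Probes were named through RefSeq accessions: 25422 of 42405 matched. All 10 members were named, with probes below background given as values. Neighbours and most-like genes followed stated rules. Promoter windows were found for 9 members. The members and lists were chosen with earlier results of these data known. The fitting was tested on simulated data.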

Additional observations from a re-analysis of the deposited data

Results flagged for a closer look

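The direct comparison of the knock-downs gave a log2 difference of 0.61 for NAP1L2 (KD4 minus KD3, SE 0.0964), which passed limma's adjusted p. It is the gap between the 2 differences from CTL that were known when the family was chosen, so it is no independent test. It did not pass the fold threshold. The adjusted p was not passed with the replicate block, by the methods' t-test, or with any of 5 single arrays left out (KD3 replicate 2 or 3, or any KD4 array).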

How the results depend on the processing

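NAP1L2 and NAP1L3, and no other member, were called higher in both knock-downs under every alternative run with the fold threshold: scaling to the 75th percentile, normexp, the authors' log2 values, both filters on dim probes, the replicate block, the slide block, the methods' t-test (adjusted by Benjamini-Hochberg or not), fits of only the groups compared, the brightest probe of each gene, and each array left out in turn. Without the fold threshold 4 member probes were called in KD3, 5 in KD4 and 1 between KD4 and KD3, in place of 2, 2 and 0, and 6 and 10 chaperone genes in place of 0 and 0. Of the single differences under the alternatives, 599 moved by less than the spread between replicates, 25 by more, and none of those called changed sign. These numbers include the SMCHD1 probes and settings that cannot move a difference. Such settings are the replicate block and leaving out an array of the group not compared. The 599 is therefore no measure of how stable the family values are. The replicate numbers did not pair the samples across all 3 groups: deviations of same-numbered arrays correlated at -0.0775 to 0.143. Not every array correlated best with its own number. Between KD4 and CTL, though, same-numbered arrays correlated at 0.0744 to 0.143 and the others at -0.112 to -0.0201. Those same-numbered arrays also shared a slide. So did KD4 replicate 2 and CTL replicate 3 (-0.0201), and KD4 replicate 3 and CTL replicate 2 (-0.053). The part of the slide in this was not tested. With the replicate block the NAP1L2 difference of KD4 minus KD3 was 0.61 and no longer passed the adjusted p, TSPYL2 passed it in neither knock-down, and TSPYL5 passed it in KD4, while the calls with the fold threshold were those above. Signals of FAM133A in control cells, NAP1L5 and the dimmer TSPYL5 probe lay at background, which bounds what can be said of them.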
